A study of Mus musculus with 5 samples.

Results

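The miR-17-92 cluster of the mouse was followed in bone marrow-derived dendritic cells (BMDCs) kept with flagellin or with medium alone. Its members were chosen by name, as the arms of miR-17, miR-18a, miR-19a, miR-20a, miR-19b and miR-92a among the mouse miRNAs of the array, and 14 of the 1122 mouse miRNAs matched. 12 of them come from the hairpins on chromosome 14, and the other 2 (miR-19b-2-5p and miR-92a-2-5p) from the hairpins of a paralogous cluster on chromosome X. BMDCs were grown from C3H/HeJ bone marrow with rmGM-CSF and rmIL-4, selected for CD11c with magnetic beads, and incubated for 24 h with 100 ng/mL flagellin (3 arrays) or with medium alone (2 arrays). C3H/HeJ mice carry a defective Tlr4, and flagellin, the protein of the bacterial flagellum, is the ligand of TLR5. The methods give 6 weeks as the age of the C3H/HeJ mice, of either sex, and the number of animals behind each array is not given in the sources used here. Since the labels do not say whether the replicates came from separate cultures, p-values measure only the spread between these arrays, and the small number of arrays limits the precision.

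The members of the chromosome 14 cluster are made from 1 long primary transcript, which Drosha cuts into hairpins and Dicer then cuts into a 5p and a 3p arm. One arm is usually loaded into an Argonaute protein and kept, and the other is degraded. The seed, bases 2 to 8 from the 5′ end, does most of the pairing with target mRNAs, so that arms with the same seed share many targets. The cluster is induced by Myc, promotes growth and survival of blood cell progenitors and lymphocytes through targets such as Bcl2l11 (Bim), and is known to be lowered as myeloid cells mature.

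RefSeq places the 6 hairpins on the plus strand of chr14:115043671-115044506 (GRCm38), within 836 bases, in the order Mir17, Mir18, Mir19a, Mir20a, Mir19b-1 and Mir92-1, with 35 to 96 bases between neighbours. The gene model of the host transcript, Mir17hg, runs from 115044390 to 115046728 in that build and wholly holds 1 of the 6 hairpins, Mir92-1. The array files give mm9 as their build, so that no coordinate of theirs is set beside these. RefSeq held the mature sequence of 13 of the 14 arms by name, all but miR-19a-5p.

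The 7 arms that the arrays read in these cells are shown first, since the comparison rests on them, with the seed in capitals.
miR-17-5p: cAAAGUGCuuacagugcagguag
miR-20a-5p: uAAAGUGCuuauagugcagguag
miR-18a-5p: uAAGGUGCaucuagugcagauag
miR-19a-3p: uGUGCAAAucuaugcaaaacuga
miR-19b-3p: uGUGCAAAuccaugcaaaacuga
miR-92a-3p: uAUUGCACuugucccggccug
miR-17-3p: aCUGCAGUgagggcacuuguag
These arms fall into 5 seed groups. miR-17-5p and miR-20a-5p share AAAGUGC and differ at 2 bases (C1U and C12U, counted from the 5′ end of miR-17-5p). miR-19a-3p and miR-19b-3p share GUGCAAA and differ at 1 base (U11C, counted from the 5′ end of miR-19a-3p). miR-18a-5p has AAGGUGC, miR-92a-3p has AUUGCAC and miR-17-3p has CUGCAGU. miR-19b-3p and miR-92a-3p have the same mature sequence from chromosome 14 and from the X cluster, so that their signal cannot be assigned to either cluster.

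**Figure D1:**
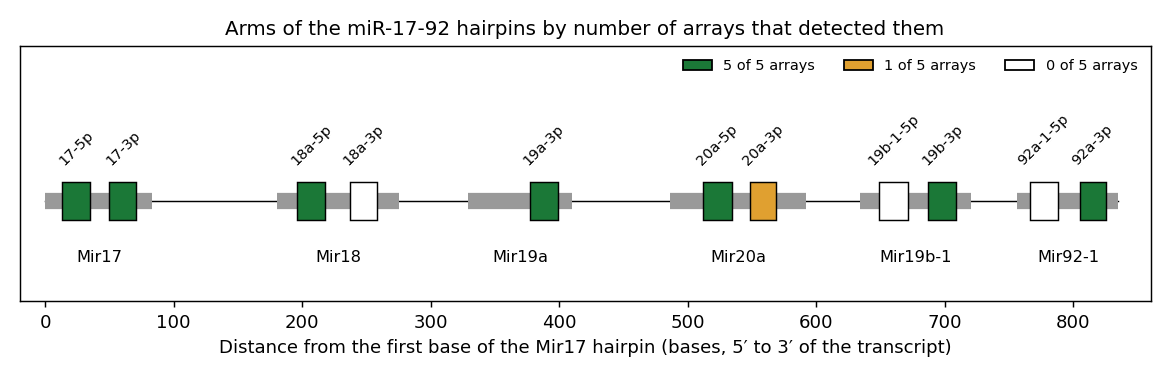
The 6 hairpins (grey) along the cluster, in bases from the start of Mir17, with each mature arm coloured by the number of arrays, of 5, that detected it. Both arms of Mir17 and 1 arm of each other hairpin were detected on all 5 arrays, and those of Mir19b-1 and Mir92-1 have the same sequence as arms of the X cluster. miR-19a-5p, which has no RefSeq position here, and the 2 arms of the X hairpins are not drawn.

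Before the results, the arrays were checked for signs that set some apart. All 5 arrays lay on 1 slide and had 1 scan date, and they detected between 292 and 317 mouse miRNAs each, with 277 detected on all 5. Flagellin and medium arrays lay in different columns of the slide, so that slide column and treatment cannot be told apart. The labelled cell type was checked with 6 haematopoietic and myeloid miRNAs, of which 5 were detected on all 5 arrays, with a summed signal of 4624 to 7488 with flagellin and 5593 to 6611 with medium. Of 15 markers of other cell types, 2 (miR-126-3p and miR-206-3p) were detected on every array and 10 were not detected, the liver and neural markers among them. Flagellin replicate 2 stood apart, with a stromal marker sum of 53.1, where the range was 0 to 53.1 with flagellin and 0 to 5.59 with medium. That sum came from miR-199a-3p (41.3) and miR-199a-5p (11.8) alone, while miR-214-3p, miR-145-5p and miR-143-3p were detected on no array. The endothelial signal of that array was 29.1 (5.60 to 29.1 with flagellin and 5.04 to 12.5 with medium), from miR-126-3p alone. Its erythroid signal was 17 (0 to 17 against 0 to 0), from miR-451 alone. miR-126-5p and miR-144-3p were detected on no array. Whether such cells were present was not tested, nor was their part in the results, and results are therefore also given without that array. In bulk RNA, fewer cells of a type and less RNA per cell cannot be told apart.

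Arms encoded by each of the 6 hairpins were read in BMDCs, although for Mir19b-1 and Mir92-1 the arm read can also come from chromosome X. 7 of the 14 arms were detected on all 5 arrays, which were mmu-miR-17-5p, mmu-miR-17-3p, mmu-miR-18a-5p, mmu-miR-19a-3p, mmu-miR-20a-5p, mmu-miR-19b-3p and mmu-miR-92a-3p (the species prefix is otherwise left out). Mir17 was the hairpin with both arms among them. An arm counts as detected on an array when a probe signal exceeds 3 times its error, and the best probe of these 7 arms gave ratios of 8.04 to 9.98.

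The other 7 arms were at or under this limit on most arrays. miR-20a-3p, the arm opposite miR-20a-5p, was detected on 1 array, medium replicate 1, with a total gene signal of 2.46, and the ratio of its best probe ran from 2.33 to 3.16 over the 5 arrays. Thus its single detection stood just above the limit, and the other 4 arrays stood just below it. miR-18a-3p was detected on none, with ratios of 1.51 to 2.34. miR-19a-5p, miR-19b-1-5p, miR-19b-2-5p, miR-92a-1-5p and miR-92a-2-5p were also detected on none. Over the 6 arms detected on no array, the highest signal of any probe was 1.85, and the ratios ran from -0.80 to 2.34. These arms were not detectable at this signal over background, and no difference is given for them. The 2 arms that are made from the X hairpins alone were among them.

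**Figure D2:**
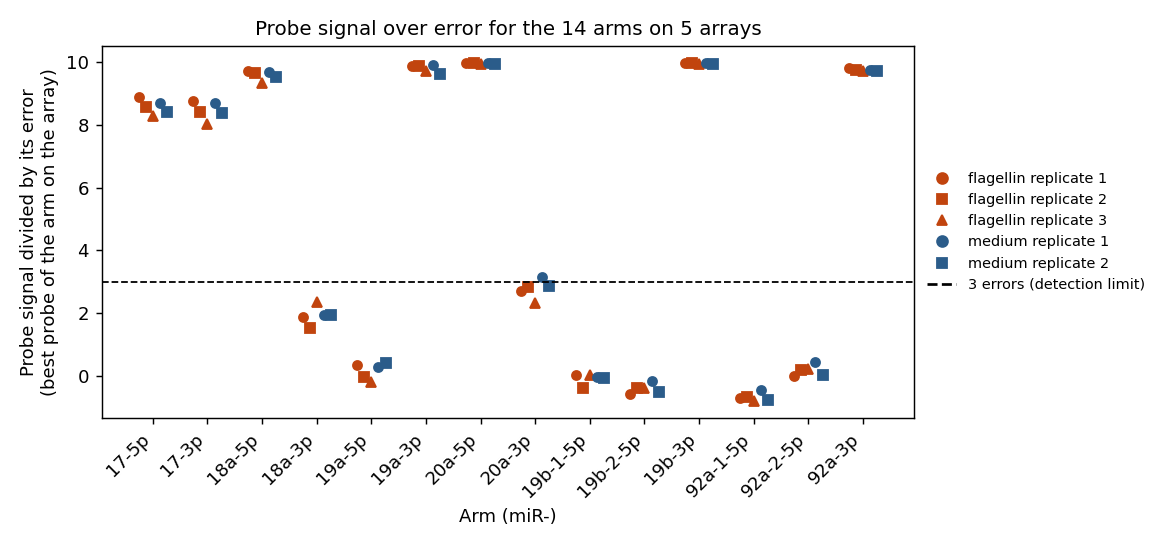
Probe signal divided by its error (y axis, no unit) for the best probe of each of the 14 arms on each array, in the order of the hairpins. The 7 arms detected on all 5 arrays lie at 8.04 or above, the arms detected on none lie at 2.34 or below, and miR-20a-3p lies around the dashed limit of 3.

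The comparison of flagellin with medium asked whether the detected members changed in stimulated BMDCs. None of the 7 passed the test. All 7 had a higher mean with flagellin, by 0.06 to 0.18 on the log2 scale, which is 1.04-fold to 1.13-fold, and in 6 of the 7 the 3 flagellin arrays overlapped the 2 medium arrays. The exception was miR-92a-3p. The values below are the total gene signal, a linear intensity, and the log2 of that signal after division by the array's 75th percentile, called the scaled level. A scaled level is followed across arrays and is not compared between miRNAs, since probes differ in brightness.

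miR-92a-3p, the last member of the transcript, had total gene signals of 120, 114 and 91.6 on flagellin replicates 1, 2 and 3, and of 102 and 91.6 on medium replicates 1 and 2. Its scaled levels were -1.23, -1.36 and -1.20 with flagellin, against -1.47 and -1.43 with medium. Every flagellin array lay above both medium arrays, with flagellin replicate 3 highest and medium replicate 1 lowest. The difference was 0.18 ± 0.08 (SE, log2; 95% interval -0.04 to 0.40), and its unadjusted p in limma was 0.0871 with an adjusted p of 0.859. Of all 307 miRNAs tested, 11.4% had every flagellin array above both medium arrays, against 1 of the 7 members, and 8.79% had every flagellin array below.

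miR-17-5p, whose seed is carried by 7 mature miRNAs of the mouse in RefSeq, had total gene signals of 39.6, 36.6 and 28.0 with flagellin, against 34.1 and 31.8 with medium. Its scaled levels were -2.83, -3.0 and -2.91 with flagellin, against -3.05 and -2.95 with medium. Flagellin replicate 1 was highest and medium replicate 1 lowest, while flagellin replicate 2 lay between the medium arrays. The difference was 0.09 ± 0.09 (SE, log2; 95% interval -0.15 to 0.32; limma adjusted p = 0.859).

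miR-17-3p, the opposite arm of the same hairpin, had total gene signals of 44.6, 43.0 and 31.9 with flagellin, against 40.0 and 36.9 with medium. Its scaled levels were -2.65, -2.77 and -2.72 with flagellin, against -2.82 and -2.74 with medium. The arrays stood in the same order as for miR-17-5p, with 1 flagellin array between the medium arrays. The difference was 0.06 ± 0.08 (SE, log2; 95% interval -0.14 to 0.27; limma adjusted p = 0.878).

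miR-20a-5p, which has the seed of miR-17-5p, had total gene signals of 679, 634 and 428 with flagellin, against 587 and 523 with medium. Its scaled levels were 1.27, 1.11 and 1.02 with flagellin, against 1.06 and 1.09 with medium. Flagellin replicate 1 was highest and flagellin replicate 3 lowest of the 5 arrays, so that the medium arrays lay within the range of the flagellin arrays. The difference was 0.07 ± 0.10 (SE, log2; 95% interval -0.20 to 0.33; limma adjusted p = 0.891), and without flagellin replicate 1 it was -0.0029.

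miR-18a-5p had total gene signals of 108, 106 and 64.5 with flagellin, against 92.2 and 81.7 with medium. The scaled levels stood at -1.38, -1.47 and -1.71 with flagellin, against -1.61 and -1.59 with medium. The arrays stood in the order of miR-20a-5p, with flagellin replicate 3 below both medium arrays and the other 2 flagellin arrays above them. The difference was 0.08 ± 0.12 (SE, log2; 95% interval -0.24 to 0.41; limma adjusted p = 0.888).

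miR-19b-3p, which shares its seed with miR-19a-3p, had total gene signals of 1263, 1305 and 778 with flagellin, against 1100 and 935 with medium. The scaled levels stood at 2.17, 2.15 and 1.88 with flagellin, against 1.96 and 1.92 with medium. Flagellin replicates 1 and 2 were above the medium arrays and flagellin replicate 3 below them. The difference was 0.13 ± 0.12 (SE, log2; 95% interval -0.18 to 0.43; limma adjusted p = 0.859).

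miR-19a-3p had total gene signals of 182, 199 and 110 with flagellin, against 167 and 127 with medium. Its scaled levels were -0.63, -0.56 and -0.94 with flagellin, against -0.75 and -0.96 with medium. Flagellin replicates 1 and 2 were highest, and flagellin replicate 3 lay between the medium arrays, which themselves were further apart than for any other detected member (SD 0.145). The difference was 0.15 ± 0.15 (SE, log2; 95% interval -0.26 to 0.55; limma adjusted p = 0.859).

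**Figure D3:**
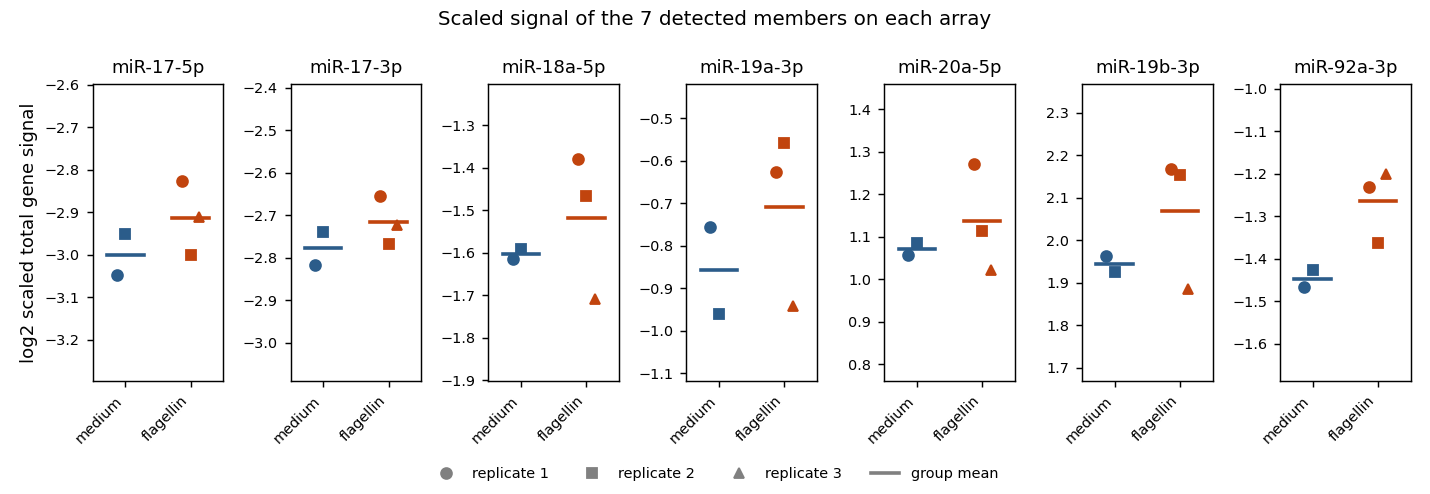
Scaled level (log2) of the 7 detected members on each array, in the order of the hairpins, with the group means as lines. The panels have their own level but the same height in log2 units. The groups overlap in every panel but that of miR-92a-3p, and flagellin replicate 3 (triangle) is the lowest flagellin array for miR-18a-5p, miR-19a-3p, miR-20a-5p and miR-19b-3p.

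As a list, 7 of the 7 detected members were higher and 0 lower with flagellin, with a median difference of 0.09, while 159 of all 307 miRNAs tested (51.8%) were higher, with a median of 0.01. The members were read on the same 5 arrays and are not independent of each other. 0 of the 7 had an adjusted p under 0.05 in limma, against 0.651% of all miRNAs tested, and 0 of the 7 had an unadjusted p under 0.05, against 5.86% of all tested (1.63% in the higher direction). The methods' t-test also gave 0 at either threshold. Over the 7 intervals, the lowest bound was 0.838-fold and the highest 1.47-fold, both for miR-19a-3p, and the narrowest interval, that of miR-17-3p, ran from 0.906-fold to 1.20-fold. Within row 1 of the slide (2 flagellin arrays and 1 medium array) the median was 0.08, and within row 2 (1 and 1) it was 0.10, each with no test. Without flagellin replicate 2 the median was 0.08, and miR-92a-3p stood at 0.23. Without flagellin replicate 1 the median was 0.04, and 6 of the 7 members were higher. Without flagellin replicate 3 it was 0.15, and 2 of the 7 members then had an unadjusted p under 0.05 but none an adjusted one. In that fit 23.1% of all miRNAs tested had an unadjusted p under 0.05.

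**Figure D4:**
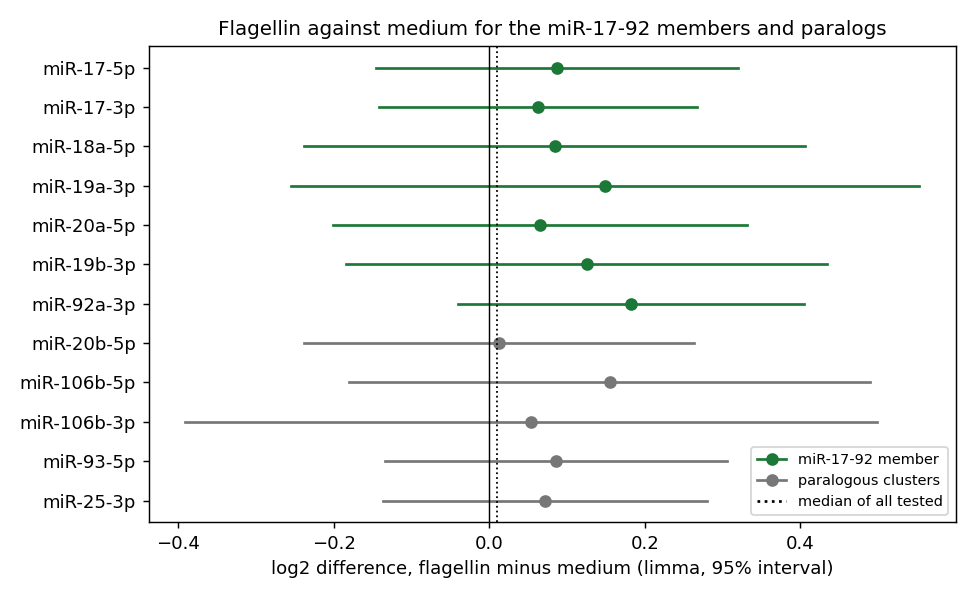
Difference between flagellin and medium (x axis, log2, limma) with its 95% interval for the 7 detected members (green) and the 5 tested arms of the paralogous clusters (grey). All 7 members lie to the right of 0, at 0.06 to 0.18, and every interval includes 0.

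Since the hairpins lie on 1 transcript, the difference between any pair of detected members within an array was followed across arrays. This difference does not depend on the scaling. The signals of miR-19b-3p and miR-92a-3p can also come from the X cluster, and that of miR-17-5p can hold miR-106a-5p of that cluster. Pairs with these members therefore need not compare products of 1 transcript. The arms of Mir17 kept the closest distance of the 21 pairs. The log2 difference between miR-17-3p and miR-17-5p was 0.17, 0.23 and 0.19 with flagellin, against 0.23 and 0.21 with medium, a range of 0.06, while the single members ranged by 0.16 to 0.40. The pair of miR-18a-5p and miR-19b-3p came next, with a range of 0.11, and the median pair had a range of 0.29. The widest was miR-19a-3p with miR-92a-3p, at 0.54. In 18 of the 21 pairs the groups overlapped. In the other 3 they did not, a smaller share than the 22.1% among all pairs of the 277 miRNAs detected on every array. Those 3 held the same readings of miR-92a-3p and are not separate results. Set against miR-17-3p, miR-17-5p or miR-20a-5p, miR-92a-3p was further up on every flagellin array than on either medium array. In the group means this was by 0.12, 0.10 and 0.12 on the log2 scale. Differences from the remaining 3 members overlapped between the groups.

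Members also differ in the length of their probes, which cannot be told apart from the member read. The log2 signal of the 277 miRNAs detected on all 5 arrays increased with mean probe length by 0.17, 0.16 and 0.11 per base on flagellin replicates 1, 2 and 3 and by 0.13 on both medium arrays, so that the slope was lowest on flagellin replicate 3. The 3 members with probes of 12 to 17 bases (both arms of Mir17 and miR-92a-3p) were higher on flagellin replicate 3 than on replicate 2, by 0.04 to 0.16. The 4 members with probes of 18 to 21 bases were lower on replicate 3, with differences of -0.09 to -0.38. With that trend removed from each array, miR-17-5p, miR-17-3p, miR-18a-5p, miR-19a-3p and miR-19b-3p were lower on replicate 3 than on replicate 2 (-0.04 to -0.19), miR-20a-5p stood at 0.01, and miR-92a-3p was still higher, by 0.17. The distance between the arms of Mir17 then had a range of 0.14 and stood at rank 4 of the 21 pairs, behind among others miR-18a-5p with miR-19b-3p at 0.11. The groups of miR-92a-3p did not overlap after this correction either. Before it, 11.4% of all miRNAs tested had every flagellin array above both medium arrays, and that share was not counted after it. With the trend removed, the range of single members over the arrays narrowed for the 4 with probes of 18 to 21 bases. It widened for the other 3, for miR-17-5p from 0.22 to 0.38. The pairs without overlap then were 6, against 23.5% of all pairs, and they were largely other ones. 2 of them held miR-92a-3p (with miR-20a-5p and with miR-18a-5p), and 4 did not, among them the arms of Mir17.

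Each detected member was read by 2 probes, each printed in 20 spots. The probes are complementary to the 3′ part of the arm, and how much of the arm they read differs between members, as the longer probe of miR-17-5p, miR-20a-5p and miR-92a-3p shows (5′ to 3′, in the letters of the array files).
miR-17-5p, 13 bases: ctacctgcactgt
miR-20a-5p, 19 bases: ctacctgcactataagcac
miR-92a-3p, 17 bases: caggccgggacaagtgc
The probe of miR-17-5p reads bases 11 to 23 of the arm, and its shorter probe bases 12 to 23. That stretch is whole in miR-106a-5p of the X cluster too, which differs from miR-17-5p at 1 base outside it (U10A, counted from the 5′ end of miR-17-5p). The signal of miR-17-5p can therefore hold miR-106a-5p, which was not analysed here under its own name. In the same stretch miR-20a-5p differs from miR-17-5p only at base 12 (C12U), the first base that the shorter probe reads. Whether the probes of miR-17-5p also bind miR-20a-5p was not tested. The probe of miR-20a-5p reads bases 5 to 23 and that of miR-92a-3p bases 5 to 21.

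The probes gave much the same picture as the total signals. Of the 14 probes of the detected members, 13 were higher with flagellin and 1 lower, where 53.1% of the 533 probes of mouse miRNAs above 3 times their error on all 5 arrays were higher, and both probes had the same sign in 6 of 7 members. Both probes of miR-92a-3p were higher on every flagellin array, by 0.21 (16 bases) and 0.17 (17 bases) on the log2 scale, with exact permutation p of 0.1 and 0.2 (two-sided, over the 10 splits of 3 arrays against 2, of which 0.1 is the smallest possible p). The third probe without overlap was that of 14 bases for miR-17-3p, at 0.09 (exact permutation p = 0.2). Of the 533 probes, 12.9% had every flagellin array above both medium arrays, against 3 of these 14. The exact permutation p of the 14 probes ran from 0.1 to 0.7, and no probe could reach 0.05 in this design.

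miR-17-5p was the member whose probes went opposite ways. Its probe of 12 bases was lower with flagellin, at -0.13 on the log2 scale, and its probe of 13 bases was higher, at 0.14 (exact permutation p = 0.3 for each). The 12-base probe was faint. Its signal fell to 3.14 times its error on flagellin replicate 3, just above the limit of 3. For the 13-base probe the lowest ratio was 8.27, which the 12-base probe reached on no array. The opposite signs thus rest on a probe near the detection limit. The longer probe gave 3.47 to 4.54 times the signal of the shorter one, depending on the array, whereas for miR-20a-5p this ratio stayed between 1.6 and 1.67. The difference reported for miR-17-5p from the total signal is therefore mostly that of the brighter, longer probe.

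**Figure D5:**
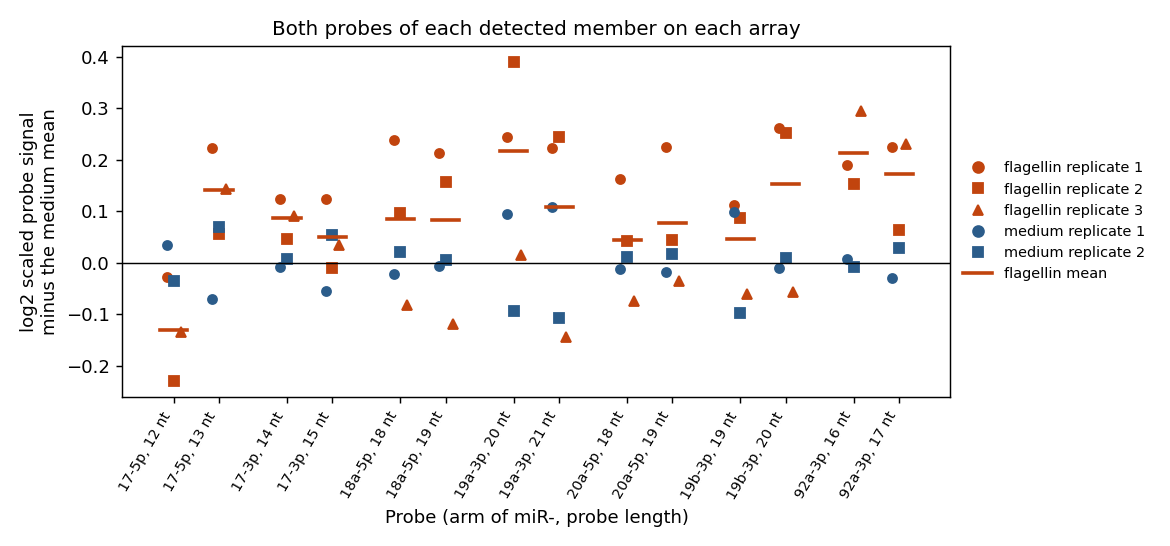
Scaled signal of both probes of each detected member on each array, as log2 difference from the mean of the medium arrays, with the flagellin mean as a line. 13 of the 14 means lie above 0, the 12-base probe of miR-17-5p lies at -0.13, and both probes of miR-92a-3p have all flagellin points above the medium points.

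The paralogous clusters share seeds with these members, the miR-106b-25 cluster those of miR-17-5p and miR-92a-3p. The miR-106a-363 cluster holds 6 hairpins on chrX:52741693-52742567, on the minus strand, and the miR-106b-25 cluster holds 3 on chr5:138165321-138165818 (both GRCm38). Their arms with the seed of miR-17-5p that the results turn on are shown with the seed in capitals.
miR-20b-5p: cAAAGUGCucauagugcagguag
miR-106a-5p: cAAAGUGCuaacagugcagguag
miR-106b-5p: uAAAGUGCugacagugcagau
miR-93-5p: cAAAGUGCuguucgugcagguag
Of the 8 listed arms of the X cluster, 7 had probes under their own name. Among these, miR-20b-5p was the only one detected on any array, and it was detected on all 5. It differs from miR-20a-5p at 2 bases (U1C and U10C, counted from the 5′ end of miR-20a-5p). Its probes read bases 4 to 23 and 5 to 23, which include only the second of these. Whether the probes also bind miR-20a-5p was not tested.

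miR-20b-5p had total gene signals of 308, 293 and 197 with flagellin, against 282 and 246 with medium. It was the 75th percentile itself on both medium arrays, so that its scaled level there was 0 by construction, and its difference of 0.01 ± 0.09 (SE, log2; 95% interval -0.24 to 0.26; limma adjusted p = 0.99) leaves out its own spread with medium. Within an array, miR-20b-5p minus miR-20a-5p was -1.14, -1.12 and -1.12 with flagellin, against -1.06 and -1.09 with medium. Every flagellin array thus lay below both medium arrays, in a range of 0.08. Of all pairs among the miRNAs detected on every array, 22.1% had no overlap between the groups.

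All 4 tested arms of the miR-106b-25 cluster had higher means with flagellin, and 0 of them had an adjusted p under 0.05 in limma. Their median difference was 0.08, from 0.05 for miR-106b-3p to 0.15 for miR-106b-5p (limma adjusted p = 0.948 and 0.859). miR-106b-3p was faint, with total gene signals of 3.12 to 4.14. On flagellin replicate 2 its scaled signal was raised to 0.0121, the floor used for all miRNAs. miR-93-5p, with the seed of miR-17-5p, stood at 0.09, and miR-25-3p, with the seed of miR-92a-3p, at 0.07. The median of the miR-17-92 members was 0.09. The groups overlapped for each of these arms, and the difference between the clusters was not tested.

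The mean profile of the 7 members over the arrays, as the distance of each scaled level from the member's own mean, was 0.13, 0.05 and -0.05 on flagellin replicates 1, 2 and 3 and -0.07 and -0.06 on the medium arrays. 7 members stood above their own mean on flagellin replicate 1, 4 on replicate 2, 3 on replicate 3 and 1 on each medium array. Flagellin replicate 1 was thus the array on which every member stood above its own mean. Among 270 other miRNAs detected on all 5 arrays, miR-30e-3p, miR-28-5p and miR-222-5p had the profiles closest to this mean, with a root mean square distance of 0.01, 0.01 and 0.02 on the log2 scale over 5 arrays. The members themselves lay 0.03 (miR-20a-5p) to 0.11 (miR-19a-3p) from it.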

How the data were processed

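Per the labels, total RNA was labelled with Cy3 and hybridised to 1-colour Agilent mouse miRNA arrays (release 18.0, 8 × 60K per the methods), 1 sample each. The authors extracted spots with Agilent Feature Extraction 10.7. The deposited intensity files give probe signals, a total gene signal per miRNA (the sum over its probes above 3 times their error, or 0.1 where none passes), its error and a detection call, with mm9 in the header. The authors also deposited a log2 table, which differs from log2 of the total gene signals by 1 constant on each array and was an alternative here.

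For scaling, the 75th percentile of the 277 mouse miRNAs that every array detected was taken on each array, and total gene signals were divided by it, floored at 0.0121 and taken to log2. The 307 mouse miRNAs detected on at least 2 arrays were compared in limma 3.58.1 (R 4.3.3; lmFit, eBayes, Benjamini-Hochberg adjustment, 3 residual degrees of freedom), which was checked on simulated data. The changes planted in that check were far larger than the differences of the members, so it does not bear on detecting those. Control spots and viral miRNAs were left out, no spot was saturated, and 5.2% to 6.28% of spots were marked as outliers. The lowest detected signal of a mouse miRNA was 2.31 to 3.21. The error that Feature Extraction gives for the members' total gene signals was 7.29% to 11.5%. Probes were compared one by one, by an exact permutation test.

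The miRNAs named by rule are all members, the tested paralogs, and the 3 non-members with the profile closest to the members' mean. miR-126-3p, miR-206-3p and the other miRNAs of the cell type check are named as markers, and miR-106a-5p for its sequence. Members and lists were chosen with earlier results of these data known. Sequences are those of RefSeq (GRCm38.p6). Alternatives covered scaling, floor, filter, test, background correction, the deposited log2 values, replicate, row and column blocks, probe length, and leaving out each array. The permutation tests ran in scipy 1.17.1 under Python 3.11.15, tables were handled with pandas 2.3.3 and numpy 2.4.6, and plots were drawn with matplotlib 3.10.9.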

Additional observations from a re-analysis of the deposited data

How the results depend on the processing

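Under the 21 alternatives run, 0 of the 7 detected members had an adjusted p under 0.05, and the median difference of the members stayed above 0. The alternatives of floor, filter and test left the members' log2 differences unchanged, so they do not bear on the sign of that median. The median of the members was 0.09 as reported and 0.27 when the scaling percentile was taken over every mouse miRNA, detected or not. That scaling also moved the median of all miRNAs tested to 0.19. Leaving out each array in turn gave medians of 0.04 (without flagellin replicate 1) to 0.15 (without flagellin replicate 3), with 0 called each time. miR-17-5p reversed to -0.0268 with processed signals taken per probe, and miR-20a-5p to -0.0029 without flagellin replicate 1 (its range over the arrays left out was -0.0029 to 0.12); the cause was not tested. The other values of single members kept their sign. In limma, miR-92a-3p had an unadjusted p of 0.0435 (adjusted 0.713) on the deposited log2 values. With background-corrected, quantile-normalized probe signals it was 0.0131 (adjusted 0.43). In these fits 20 and 26 of the 307 miRNAs tested had an unadjusted p under 0.05. Same-numbered arrays of the groups did not deviate together (correlations of -0.04 and -0.08), so that the numbers were not taken as pairs. With the replicate block the median was 0.15 with 0 members called, which equals leaving out flagellin replicate 3, since no medium array has that number, and the count over all 307 miRNAs went from 2 to 0 (39 at an unadjusted p under 0.05). That count over all miRNAs ran from 0 to 4 over the alternatives. A block for the scan date was not run, since there was 1 date. Arms under the detection limit have only a bound, and 3 arrays against 2 leave 3 residual degrees of freedom.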
